A study of Homo sapiens with 8 samples.

Results

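The 7 genes described here act where cells receive and pass on Wnt signals: FZD3 and ROR2 are Wnt receptors, LRP5 and LRP6 are co-receptors, AXIN2 and APC are scaffolds of the complex that destroys beta-catenin, and CTNNB1 encodes beta-catenin itself. They were taken by gene name from 4 lists of N6-methyladenosine (m6A) peaks, and every listed peak of the 7 genes was used, 187 of the 130622 peaks in the 4 lists and 7 of the 8758 genes with a peak in at least 1 list. The genes were chosen by their place in the pathway and on earlier counts of these lists, among them the numbers of listed peaks of FZD3, AXIN2 and ROR2 with each hairpin, so the contrast between hairpins is described for them and not tested.

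The lists come from MeRIP-seq, in which fragmented RNA is pulled down with an antibody against m6A and compared with RNA that was not pulled down (input). U2OS and 143B are established human osteosarcoma cell lines, and per the labels each received a control hairpin (shNC, here NC) or a lentiviral hairpin against METTL14 (shMETTL14), which encodes a partner of the m6A methyltransferase METTL3. The labels describe only the METTL14 lentivirus, not how the control was delivered, and name no hairpin sequence, clone or time of harvest. Each of the 4 groups has 1 input and 1 immunoprecipitated library, 8 in all, and only the immunoprecipitated libraries have a peak list.

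A cell that receives no Wnt signal keeps beta-catenin low: APC and the axins hold it beside the kinases that mark it for destruction. When a Wnt ligand joins a Frizzled receptor to LRP5 or LRP6, this complex is disabled, and beta-catenin enters the nucleus and works with TCF and LEF factors, which in turn switch on AXIN2 as a brake. ROR2 is a receptor tyrosine kinase that binds WNT5A and signals mainly without beta-catenin. The pathway is known in bone for driving the formation of osteoblasts, with LRP5 as a regulator of bone mass. m6A in messenger RNA is known to gather around stop codons and in long exons, and its readers influence the stability and translation of the RNA.

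The lists held 29992 to 35195 peaks each, with no counts, so the read depth behind a peak is unknown. The same stretch can be listed again for several transcripts, which makes peaks of 1 gene dependent on each other, and overlapping peaks of a list on the same strand were also joined to sites (10822 to 12886 per list). The fold enrichment and the p-value of a peak are the authors' own, and they are used below only to place a peak within its list. An NC peak whose spliced blocks did not overlap any shMETTL14 peak of the line by at least 1 bp is called lost, and an shMETTL14 peak without an overlapping NC peak is called gained. Neither word stands for a change in methylation that was measured. With 1 list per group there is no replicate, so no difference between hairpins or lines below has a test. A peak list does not measure RNA levels, so a lower level of the transcript and less methylation cannot be told apart, and the knockdown of METTL14 was not checked here. Of 9 osteoblast-lineage markers, RUNX2, COL1A1 and SPARC carried a peak in at least 1 list. KRT8 and KRT18 did so among 6 epithelial markers, and 0 of 6 blood markers did.

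In U2OS, 6 of the 7 genes carried a peak with NC and 5 with shMETTL14, and the same numbers held in 143B. FZD3 was listed only with NC, in both lines, and ROR2 only with shMETTL14, in both lines. LRP5 had no peak in U2OS shMETTL14 and AXIN2 none in 143B shMETTL14, each against peaks in the other 3 lists. LRP6, APC and CTNNB1 had peaks in all 4 lists, as did 4463 genes (51.0% of the 8758). The NC list of U2OS held 58 peaks of the 7 genes, at 21 sites, and its shMETTL14 list 39, at 13 sites. The corresponding numbers in 143B were 48 (17 sites) and 42 (15 sites).

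**Figure D1:**
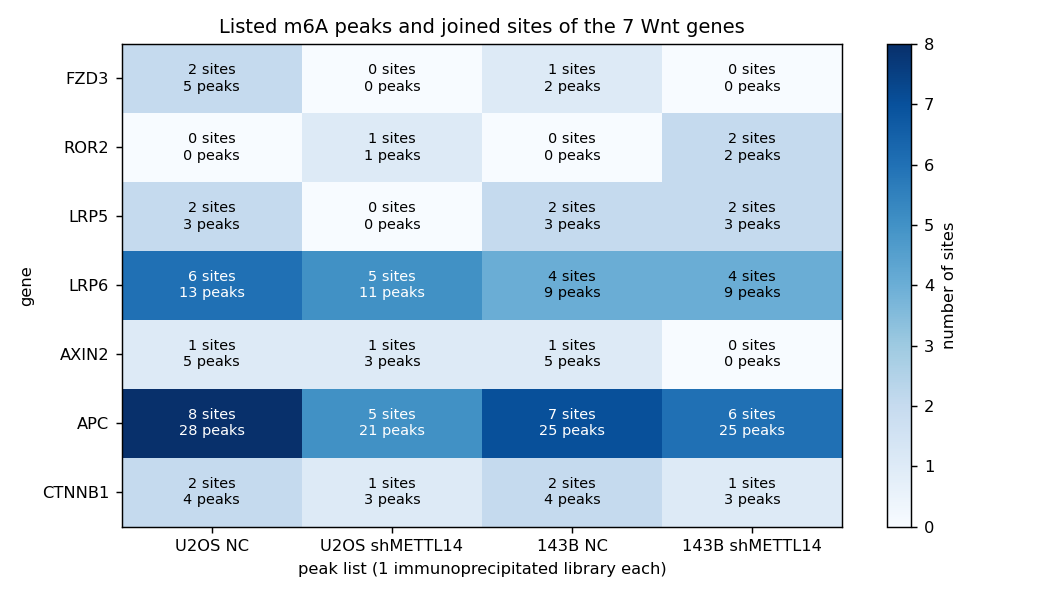
Number of joined sites (colour and upper figure) and of listed peaks (lower figure) for each of the 7 genes (vertical axis) in each of the 4 lists (horizontal axis), 1 immunoprecipitated library per list. FZD3 and ROR2 occupy opposite columns, NC and shMETTL14, and APC has up to 8 sites in a list.

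Of the 58 U2OS NC peaks, 24 were lost (41.4%, exact interval 28.6 to 55.1), where 26.9% of all U2OS NC peaks were lost. Of the 39 U2OS shMETTL14 peaks, 1 was gained (2.56%, interval 0.0649 to 13.5), where 20.9% of all were gained. The 143B lists called 10 of 48 member peaks lost (20.8%, interval 10.5 to 35.0), where 20.7% of all were lost. They called 10 of 42 gained (23.8%, interval 12.1 to 39.5), where 27.3% of all were gained. Only counting error is in these intervals, and they count every isoform as a separate draw, which it is not. Counted in sites, the 7 genes lost 10 of 21 in U2OS, where 31.2% of all sites were lost, and gained 1 of 13, where 24.9% of all were gained. In 143B they lost 4 of 17 sites, where 24.6% of all were lost, and gained 5 of 15, where 32.0% of all were gained. APC held 99 of the 187 peaks. Without it the lost share in 143B was 39.1% (9 of 23), and that in U2OS was 43.3% (13 of 30), where 20.7% and 26.8% of all were lost. Of the 9 in 143B, 5 were listings of 1 AXIN2 site and 2 were on FZD3. Since the genes were chosen with these lists known, these shares describe the genes and support nothing further.

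FZD3, a Frizzled receptor on chromosome 8, had 5 peaks at 2 sites in U2OS NC, 2 peaks at 1 site in 143B NC, and none in either shMETTL14 list. The first U2OS site crossed the start codon (28360442 to 28360562) and was listed for 3 transcripts, with fold enrichments of 3.42, 3.42 and 3.3 and p-values of 0.00066, 0.00066 and 0.0013. These were weak peaks, since at most 13.5% of the U2OS NC peaks had a larger p-value. The second U2OS site crossed the stop codon (28420377 to 28420597) and was listed for 2 transcripts, with fold enrichments of 10.3 and 6.1 and p-values of 1.8e-06 and 9.1e-06. It stood near the middle of its list by p-value, with 52.2% of peaks weaker than the stronger of its 2 peaks. By fold enrichment these 2 peaks stood above 93.8% and 83.3% of the list. The value 10.3 was shared by 100 peaks on 80 genes of the U2OS NC list.

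The 143B NC peaks of FZD3 lay inside the same stop-codon site (28420407 to 28420477) and were labelled as coding. Both had a fold enrichment of 3.17 and a p-value of 0.004, and only 0.496% of the 143B NC peaks were weaker. The stop-codon place of FZD3 was thus listed in both NC lists and in neither shMETTL14 list. In U2OS it was high by fold enrichment and near the middle by p-value, and in 143B it was at the very edge of the list. Among 1646 genes that had 2 sites in the NC list of U2OS, 8.87% had none in its shMETTL14 list. Of the 5190 genes with a site in both NC lists, 135 (2.6%) had none in either shMETTL14 list. The genes whose highest fold enrichments over the 4 lists were nearest to those of FZD3 were SLC25A24, WDR7 and C5orf55, at distances of 0.3, 0.32 and 0.37 (summed absolute differences of log2 of the fold enrichment plus 1, over 4 lists, with 0 for no peak).

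ROR2, on the minus strand of chromosome 9, showed the opposite presence. It had no peak in U2OS NC or 143B NC, 1 peak in U2OS shMETTL14 and 2 in 143B shMETTL14, all on 1 transcript. Its stop-codon peak spanned 94485835 to 94486045 in U2OS and 94485835 to 94486015 in 143B, so it ended on the same base at its 3' side in both lines. Its fold enrichment was 25.1 in U2OS shMETTL14 (p-value 5.4e-07) and 16.6 in 143B shMETTL14 (p-value 2.7e-08). By fold enrichment it stood above 99.6% and 96.8% of these lists, and by p-value near their middle, with 54.6% and 57.0% of peaks weaker. The second 143B peak lay in the 3' UTR (94485596 to 94485746) and was weak, with a fold enrichment of 3.77 and a p-value of 0.001.

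High fold enrichments such as those of ROR2 are coarse. The value 25.1 was shared by 19 peaks on 18 genes of the U2OS shMETTL14 list, and 16.6 by 186 peaks on 144 genes of the 143B shMETTL14 list. Of the 5168 genes with a site in both shMETTL14 lists, 119 (2.3%) had none in either NC list. The patterns nearest to ROR2 were those of FLVCR1, ZNF814 and CYP51A1, at distances of 0.51, 0.69 and 0.81 on the same measure over 4 lists. ZNF814 belongs to a large zinc finger family and may share reads with relatives, which was not tested.

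The 2 co-receptors are close relatives, and their peaks differed in number, position and presence. LRP5, on chromosome 11, had 3 peaks at 2 sites in U2OS NC, 0 in U2OS shMETTL14, and 3 peaks at 2 sites in each 143B list. Its stop-codon place (68216372 to 68216743) was listed for 2 transcripts in 3 of the 4 lists. The fold enrichments there were 3.62 and 3.85 in U2OS NC, 3.65 and 3.62 in 143B NC, and 3.21 and 4.59 in 143B shMETTL14. The U2OS NC p-values were 6.9e-05 and 9.8e-06, with 34.3% and 45.6% of the list weaker, whereas those in 143B NC were 2.6e-10 and 5e-10, with 72.1% and 71.4% weaker. The place that was lost in U2OS was therefore in the weaker part of its list there, and the one kept in 143B in the stronger part.

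The remaining LRP5 peaks lay in coding sequence and each was seen with 1 hairpin only. A peak across 2 exons (68181427 to 68183802, fold enrichment 3.47, p-value 0.00028) was listed in U2OS NC and lost. A peak at the same place (68181337 to 68183802, fold enrichment 2.28, p-value 1.9e-05) was listed in 143B shMETTL14 and gained. The same place thus stood with NC in 1 line and with shMETTL14 in the other. A coding peak at 68153893 to 68154042 was listed only in 143B NC, with a fold enrichment of 2.22. The presence pattern of LRP5, absent only from U2OS shMETTL14, was that of 418 genes, itself included, or 4.77% of the 8758.

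LRP6, on the minus strand of chromosome 12, had 13 peaks at 6 sites in U2OS NC, 11 at 5 sites in U2OS shMETTL14, and 9 at 4 sites in both 143B lists. Of its 6 places, 4 were present in all 4 lists, and 31 of its 42 peaks crossed an exon junction. In all lists together 34.5% to 39.2% of peaks were spliced. The place at the stop codon (12273998 to 12277592) was the strongest in U2OS, with p-values down to 3.2e-15 with NC and 3.2e-17 with shMETTL14, and fold enrichments of 4.32 to 4.37 and 4.58 to 7.19. In 143B the same place had fold enrichments of 3.1 to 3.77 with NC and 3.58 to 3.84 with shMETTL14. In 143B NC its 3 transcripts gave this place 3 different labels, stop codon, 3' UTR and coding, so the part assigned to a peak depends on the transcript.

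The other LRP6 places in all lists lay upstream of it. One reached from 12356250 to 12419710 on the genome, across introns, and held the only start-codon peaks of the gene, 1 in each U2OS list. In 143B its peaks were confined to 12397231 to 12397469. Those at 12318048 to 12332865 and 12312734 to 12317235 were coding and listed for 2 transcripts in every list. The single lost place, a coding peak at 12334041 to 12334166 in U2OS NC, was weak, with a fold enrichment of 2.2 and 17.8% of the list weaker by p-value. A short 3' UTR place (12273639 to 12273789) was listed and kept in U2OS and absent from both 143B lists. LRP6 therefore lost 1 of 6 sites in U2OS and 0 of 4 in 143B and gained 0 in both lines. Of all sites, 31.2% were lost and 24.9% gained in U2OS, and 24.6% and 32.0% in 143B.

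AXIN2, on the minus strand of chromosome 17, carried 1 place, in coding sequence (63553973 to 63554371). It had 5 peaks in U2OS NC, 3 in U2OS shMETTL14, 5 in 143B NC and 0 in 143B shMETTL14, and the peaks of each list joined to 1 site. In U2OS NC the fold enrichments were 5.14 to 7.7 and the p-values 1.4e-05 to 2.2e-05. In U2OS shMETTL14 the fold enrichments were 12.0, 13.1 and 14.2 and the p-values 0.0003 to 0.00051. The 143B NC peaks had fold enrichments of 14.3 to 17.0 and p-values of 0.00015 to 0.00071, with 14.4% to 30.1% of the list weaker. The AXIN2 values in the 143B NC and U2OS shMETTL14 lists thus paired a high fold enrichment with a weak p-value, and 17.0 was shared by 277 peaks on 173 genes of the 143B NC list.

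In U2OS the AXIN2 peaks of both hairpins barely met. The shMETTL14 peaks lay downstream of most of the NC peaks and overlapped them by 31 to 40 bp, at most 26.8% of the shorter peak. The NC peaks of 2 of the 5 transcripts (63554191 to 63554368 and 63554194 to 63554371) ended 59 and 62 nt short of the nearest shMETTL14 peak and were lost. When at least 50% of the shorter peak had to overlap, no AXIN2 peak was shared between the U2OS lists. The 143B NC peaks (63554152 to 63554312) lay within the U2OS NC place. Of the 3554 genes with 1 site in 143B NC, 18.6% had no site in 143B shMETTL14. The nearest patterns to AXIN2 were those of BAI1, CCDC40 and ZNF658, at distances of 0.43, 0.61 and 0.73 over 4 lists.

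APC, on chromosome 5, carried 99 peaks over the 4 lists, the most of the 7 genes, listed for 6 transcripts. Every one of the 99 lay in a single block, between 112173265 and 112179928, with 88 labelled as coding and 11 as crossing the stop codon. APC had 28 peaks at 8 sites in U2OS NC, 21 at 5 sites in U2OS shMETTL14, 25 at 7 sites in 143B NC and 25 at 6 sites in 143B shMETTL14. Joined over all lists these were 7 places, of which 2 were present in all 4 lists. In U2OS the APC peaks covered 2542 bases with NC and 1166 with shMETTL14. In 143B they covered 1877 and 2592. Over whole lists the covered length was 3.46 and 3.16 Mb in U2OS and 3.6 and 4.22 Mb in 143B, in the same directions.

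The 2 APC places in all lists were the second and the seventh in the direction of the transcript. The second (112174305 to 112175136) held the strongest APC peaks of every list but 143B NC, with lowest p-values of 2.6e-10 in U2OS NC, 1.7e-06 in U2OS shMETTL14, 1.4e-05 in 143B NC and 3.2e-15 in 143B shMETTL14. Its highest fold enrichments were 4.95, 5.14, 6.26 and 7.76 in the same order. The seventh (112178994 to 112179928) reached across the stop codon, with lowest p-values of 5e-06, 3.5e-06, 4.5e-06 and 3.5e-09. These places were thus listed with either hairpin in both lines.

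Between them, U2OS lost all its APC places and 143B did not. The third place (112175904 to 112176354) had 3 peaks in U2OS NC, with fold enrichments up to 5.69 and p-values down to 1.2e-06, and 0 in U2OS shMETTL14. In 143B it had 6 peaks with NC and 3 with shMETTL14, and these met only at their edges: the 5 kept NC peaks overlapped an shMETTL14 peak by 1 to 24 bp, at most 15.9% of the shorter peak. The sixth place (112176984 to 112177622) had 6 peaks in U2OS NC (p-values down to 2.4e-06) and 0 in U2OS shMETTL14, and 3 in each 143B list. The fourth (112176571 to 112176634) was listed only in U2OS NC and the fifth (112176684 to 112176754) only in 143B shMETTL14, and both were narrow and weak, with lowest p-values of 0.00079 and 0.0017. In U2OS, 11 of the 28 NC peaks of APC were lost, all of them between the second and the seventh place, and 0 of 21 were gained. Of all U2OS NC peaks 26.9% were lost, and of all U2OS shMETTL14 peaks 20.9% were gained. The lost U2OS peaks of the third and sixth places stood near the middle of their list, with 43.7% to 53.4% of peaks weaker.

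In 143B, where 20.7% of all NC peaks were lost, 1 of 25 APC peaks was. It lay at 112175904 to 112175994 and ended 7 nt before the nearest shMETTL14 peak of the gene. Of all 143B shMETTL14 peaks 27.3% were gained, and of the 25 on APC 7 were, which is near that share. Of these, 5 formed the first place (112173382 to 112173563 in this list), 1 for each of 5 transcripts, with fold enrichments of 4.68 to 5.26 and p-values of 8.7e-07 to 2.5e-06. This place was also listed in both U2OS lists, with 6 peaks each, so it was missing only from 143B NC.

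CTNNB1, on chromosome 3, had 4 peaks at 2 sites in each NC list and 3 peaks at 1 site in each shMETTL14 list, and all 14 lay in the 3' UTR. The main place (41281155 to 41281787) was listed for 3 transcripts in every list. Its lowest p-values were 2.5e-35 in U2OS NC, 2.5e-40 in U2OS shMETTL14, 4e-53 in 143B NC and 6.3e-72 in 143B shMETTL14, and 94.0% to 96.5% of the peaks of these lists were weaker. Its fold enrichments were moderate in U2OS, at 3.85 to 4.17 with NC and 3.4 to 5.7 with shMETTL14. In 143B they were 9.3 to 9.65 with NC and 5.79 to 6.13 with shMETTL14. These folds come from separate lists whose scaling is not given in the sources used here, and no change is read from them. The peaks of both hairpins covered nearly the same bases, overlapping by at least 93.6% of the shorter peak in both lines.

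A second, minor 3' UTR place of CTNNB1 stood upstream of the main one. It was listed in U2OS NC at 41280892 to 41280982 (fold enrichment 1.81, p-value 4e-05) and in 143B NC at 41280922 to 41281011 (fold enrichment 1.94, p-value 0.00024), for the same transcript, and in neither shMETTL14 list. By fold enrichment it stood above only 5.03% and 6.13% of these lists. With the stop-codon place of FZD3 it was 1 of 2 member sites lost in both lines, of 14 U2OS NC sites of the 7 genes that overlapped a 143B NC site. Among all genes, 396 of 7686 such sites (5.15%) were lost in both lines. In the other direction, the ROR2 stop-codon site was the single one gained in both lines, of 11 shMETTL14 sites of the 7 genes seen in both lines. Of all such sites 5.57% were. FZD3 and ROR2 were chosen with their peak numbers in these lists known, so their sites were bound to enter these counts. The counts are therefore no comparison with the shares of all sites.

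**Figure D2:**
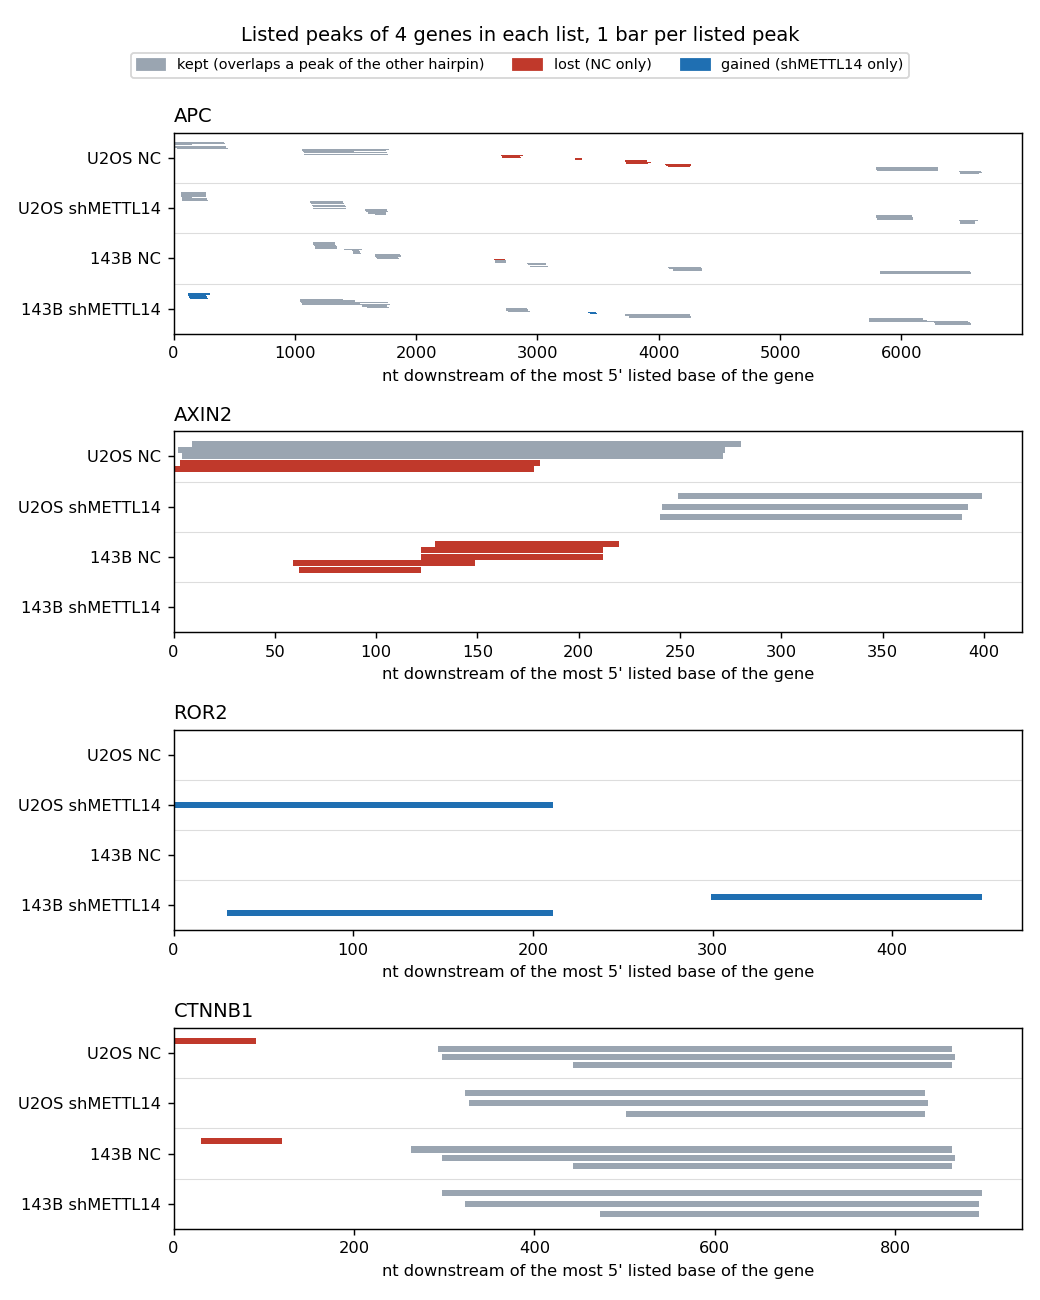
Positions of the listed peaks of APC, AXIN2, ROR2 and CTNNB1 in each list, as distance in nt downstream of the most 5' listed base of the gene (horizontal axis, to scale), with 1 bar per listed peak. Red bars are lost NC peaks, blue bars gained shMETTL14 peaks and grey bars kept peaks; the lost U2OS peaks of APC fill the middle of the stretch, and the main CTNNB1 place is grey in all 4 lists.

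Over the 4 lists, 133 of the 187 peaks of the 7 genes were coding, 30 crossed the stop codon, 19 lay in the 3' UTR and 5 crossed the start codon. Coding peaks made up 67.2% of member peaks in U2OS NC and 77.1% in 143B NC, where they were 53.6% and 50.3% of all peaks. Peaks confined to the 3' UTR made up 8.62% and 10.4% of member peaks, against 22.7% and 25.0% of all. APC supplied 25 of the 39 coding member peaks in U2OS NC, and 14 of the 30 peaks of the other 6 genes were coding there. In 143B NC, 15 of the 23 peaks of the genes other than APC were coding. APC had 0 peaks confined to the 3' UTR. The other 6 genes had 5 of 30 there in U2OS NC and 5 of 23 in 143B NC, so the low 3' UTR share rests largely on APC. Over the whole lists, 11.4% of stop-codon and 27.3% of coding peaks were lost in U2OS, and 8.81% and 19.7% in 143B, with no test of the difference. Of the member stop-codon peaks, 4 of 10 were lost in U2OS, those of FZD3 and LRP5, and 0 of 6 in 143B.

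Weak peaks made up most of those lost or gained over the whole lists. With each list cut into 10 equal groups by p-value, 0.185% of the U2OS NC peaks were lost in the strongest group and 64.8% in the weakest, and the 143B NC shares were 0.0907% and 55.1%. No U2OS NC member peak in the 4 strongest groups was lost, and these lay on LRP6, APC and CTNNB1. In the fifth group, where 16.1% of all U2OS NC peaks were lost, 6 of 7 member peaks were, 5 of them on APC and 1 on FZD3. The 5 on APC relisted the third and sixth places for more than 1 transcript each, and FZD3 was chosen with its peak numbers known. They are therefore not 6 independent losses. In 143B all 10 lost member peaks were in the weaker part of the NC list, with p-values of 0.00015 to 0.004, while the 38 kept ones reached 4e-53. Of the 10 gained 143B peaks, 9 were in the weaker part of the shMETTL14 list; the exception was the ROR2 stop-codon peak.

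**Figure D3:**
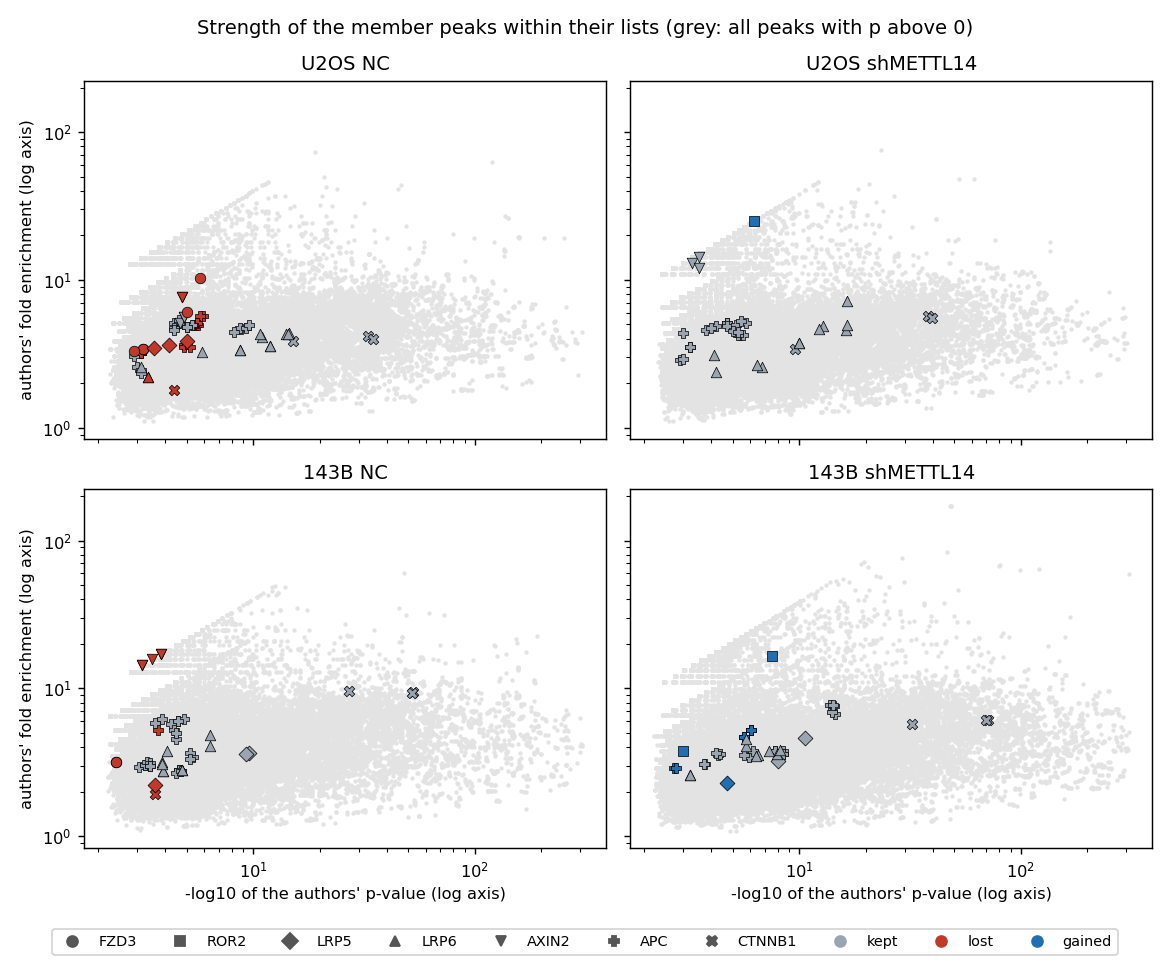
The authors' fold enrichment (vertical, log axis) against -log10 of the authors' p-value (horizontal, log axis) for member peaks (symbols by gene, colours by call) over all peaks of the list (grey, p above 0), 1 panel per list. Lost and gained member peaks lie toward the left of each cloud, the strongest CTNNB1 peaks lie far to the right, and AXIN2 (143B NC, U2OS shMETTL14) and ROR2 (fold enrichment 25.1 and 16.6) stand high on the left.

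**Figure D4:**
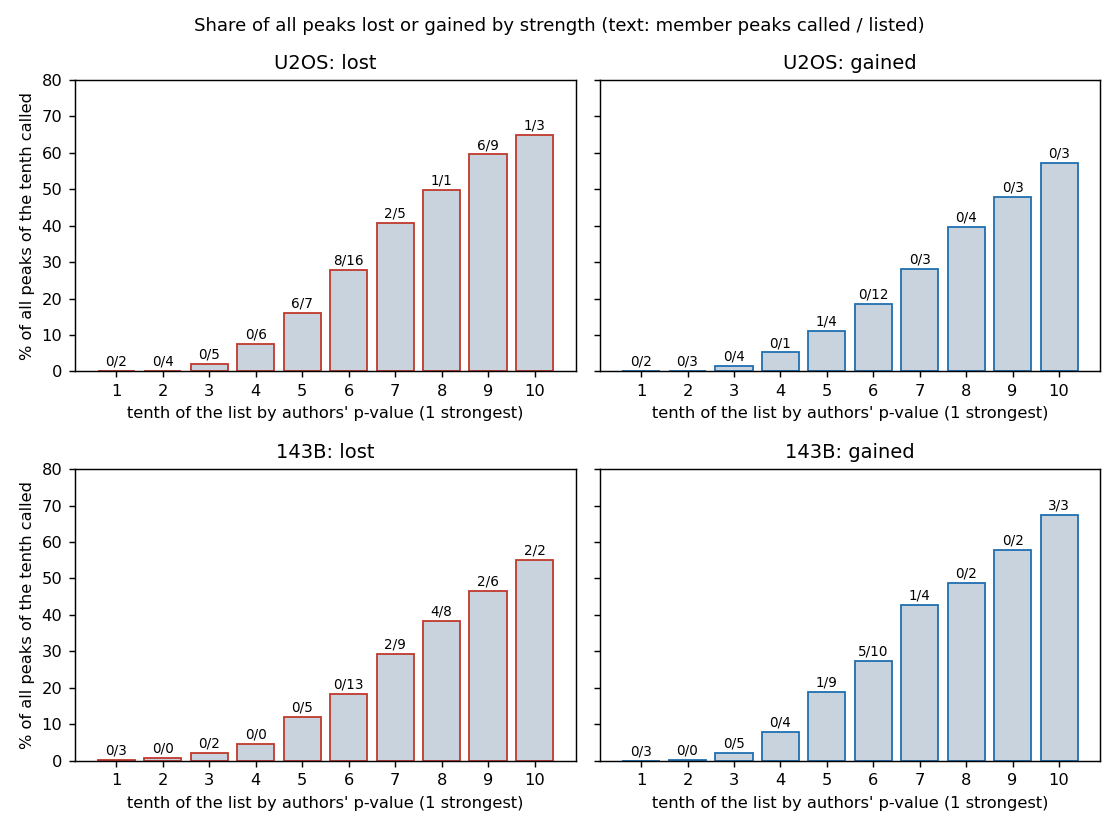
Share of all peaks lost (NC lists) or gained (shMETTL14 lists) in each of 10 equal groups of the list by the authors' p-value, from strongest (1) to weakest (10). The figures over the bars give member peaks called and member peaks listed. In U2OS NC, 6 of 7 member peaks of the fifth group were lost, where 16.1% of all peaks of that group were. Most of these 6 were APC places listed for more than 1 transcript.

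The rest of the pathway was followed in a list of 105 other Wnt genes, of which 65 carried a peak in at least 1 list and 27 in all 4. In U2OS these genes lost 79 of 231 NC peaks (34.2%, where 26.9% of all were lost) and gained 54 of 183 shMETTL14 peaks (29.5%, where 20.9% of all were gained). In 143B they lost 63 of 229 (27.5%, where 20.7% of all were lost) and gained 63 of 225 (28.0%, where 27.3% of all were gained). By gene, U2OS listed 13 of them with NC alone, 3 with shMETTL14 alone and 35 with both hairpins, and 143B listed 4, 8 and 40. The share of all genes listed with a single hairpin was not computed, so these counts are not read as particular to Wnt genes. The whole U2OS lists held 6426 genes with NC and 6092 with shMETTL14, and those of 143B 6621 and 6916. Only 1 gene, the tankyrase TNKS, which promotes the degradation of axins, had peaks in both NC lists and in neither shMETTL14 list, with 1 peak in each, and 0 genes had the reverse pattern of ROR2. TNKS is named for this count, after its values were seen. Of all genes with a site in both NC lists, 2.6% had none in either shMETTL14 list. Of all genes with a site in both shMETTL14 lists, 2.3% had none in either NC list.

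Among the ligands and the proteins that secrete or amplify them, 8 of 25 genes carried a peak. They lost 4 of 6 and gained 5 of 6 peaks in U2OS, where 26.9% of all peaks were lost and 20.9% gained, and lost 3 of 11 and gained 1 of 9 in 143B, where 20.7% and 27.3% of all were. WNT5A, the best known ligand of ROR2, had 4 peaks at 1 site in U2OS shMETTL14, all gained, with a highest fold enrichment of 5.45, and 0 in the other 3 lists. WNT5B had 4 peaks in 143B NC, of which 2 were lost, and 2 in 143B shMETTL14. WNT6 had 1 peak in each U2OS list, at places that did not overlap. RSPO4, an R-spondin that amplifies Wnt signals, had peaks in all lists and lost 1 of 2 in 143B.

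Of the other 15 receptors, 10 carried a peak. In U2OS they lost 12 of 19 peaks (63.2%) and gained 7 of 14 (50%), both above the shares of all peaks just given. In 143B they lost 9 of 22 (40.9%, where 20.7% of all were lost) and gained 3 of 17 (17.6%, where 27.3% of all were gained). ROR1, the close relative of ROR2, had 6 peaks at 4 sites in U2OS NC with fold enrichments up to 18.0, all lost, and 0 in the other lists. ROR1 and ROR2 were thus listed in U2OS with opposite hairpins. PTK7, a pseudokinase co-receptor, gained 6 of 7 peaks in U2OS and lost 5 of 6 in 143B. FZD1 lost 1 of 2 peaks in U2OS and 2 of 4 in 143B and gained 1 in each line, while FZD6 kept its 4 peaks, at 1 site, with both hairpins in both lines.

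Among inhibitors that act at the receptors, 6 of 18 genes carried a peak. U2OS lost 5 of 21 of these (23.8%, where 26.9% of all were lost) and gained 6 of 22 (27.3%, where 20.9% of all were gained). In 143B, 4 of 9 were lost (44.4%, where 20.7% of all were) and 10 of 18 gained (55.6%, where 27.3% of all were). KREMEN1, a receptor for the LRP-blocking DKK proteins, lost 3 of 5 and gained 6 of 8 peaks in U2OS and had none in 143B. KREMEN2 had 6 peaks at 1 site in 143B shMETTL14 only. ZNRF3, a ubiquitin ligase that removes Frizzled receptors, kept all 12 peaks in U2OS and lost 4 of 6 and gained 4 of 9 in 143B.

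Dishevelled proteins and casein kinases, which carry the signal from the receptor, had peaks on 9 of 10 genes. In U2OS 11 of 45 were lost (24.4%) and 7 of 42 gained (16.7%), near the shares of all peaks (26.9% and 20.9%). In 143B 16 of 55 were lost (29.1%, where 20.7% of all were) and 3 of 38 gained (7.89%, where 27.3% of all were). CSNK1G3, a kinase of the family that phosphorylates LRP6, lost 9 of 24 peaks in U2OS and 8 of 16 in 143B and gained 0 in both. DVL3 gained 4 of 5 peaks in U2OS and 1 of 3 in 143B. CSNK1E lost 1 of 9 in U2OS and 3 of 15 in 143B, and CSNK1D kept its NC peaks in both lines.

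In the destruction complex, 9 of 11 genes other than AXIN2 and APC carried a peak. They lost 5 of 16 peaks in U2OS (31.2%, where 26.9% of all were lost) and gained 13 of 25 (52.0%, where 20.9% of all were gained). In 143B they lost 10 of 40 (25.0%, where 20.7% of all were lost) and gained 6 of 36 (16.7%, where 27.3% of all were gained). AXIN1, the constitutive relative of AXIN2, had 3 peaks in U2OS NC, all lost, and 2 in U2OS shMETTL14, both gained, and lost 1 of 9 in 143B. AMER1, a membrane partner of APC, gained 4 of 7 peaks in U2OS and 4 of 10 in 143B and lost 1 of 4 and 3 of 9. GSK3A gained 4 of 5 and 2 of 6, and CSNK1A1, the priming kinase of beta-catenin, kept every peak in both lines.

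Nuclear partners of beta-catenin had peaks on 13 of 16 genes. In U2OS 20 of 71 were lost (28.2%) and 8 of 40 gained (20.0%), near the 26.9% and 20.9% of all peaks. In 143B 4 of 65 were lost (6.15%, where 20.7% of all were) and 33 of 90 gained (36.7%, where 27.3% of all were). TCF7L2, which binds beta-catenin on DNA, had 31 NC and 13 shMETTL14 peaks in U2OS, at 3 sites each, with 0 lost or gained. In 143B it kept all 16 NC peaks, at 2 sites, and gained 15 of 31 shMETTL14 peaks, which stood at 3 sites. Those 15 are thus largely repeats for several transcripts. TCF7L2 and CHD8 held 15 and 11 of the 33 gained peaks, so the 143B share rests mainly on 2 genes. CHD8, which represses beta-catenin targets, lost 6 of 9 peaks in U2OS and gained 11 of 24 in 143B. TLE2, a corepressor, had 8 peaks at 1 site in U2OS NC only, and BCL9L kept its 5 NC peaks in U2OS and 4 of 5 in 143B.

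All 10 planar polarity genes carried a peak in some list. They lost 22 of 53 in U2OS (41.5%, where 26.9% of all were lost) and gained 8 of 34 (23.5%, where 20.9% of all were gained). In 143B they lost 17 of 27 (63.0%, where 20.7% of all were lost) and gained 7 of 17 (41.2%, where 27.3% of all were gained). PRICKLE1 had 11 peaks at 3 sites in U2OS NC, all lost, and none elsewhere. DAAM1, which links Dishevelled to the cytoskeleton, kept 6 of 6 peaks and gained 5 of 11 in U2OS, and had 6 peaks in 143B NC, all lost. CELSR1 lost 9 of 13 peaks in 143B and had none in U2OS, and INVS lost 1 of 4 in U2OS and 2 of 6 in 143B.

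**Figure D5:**
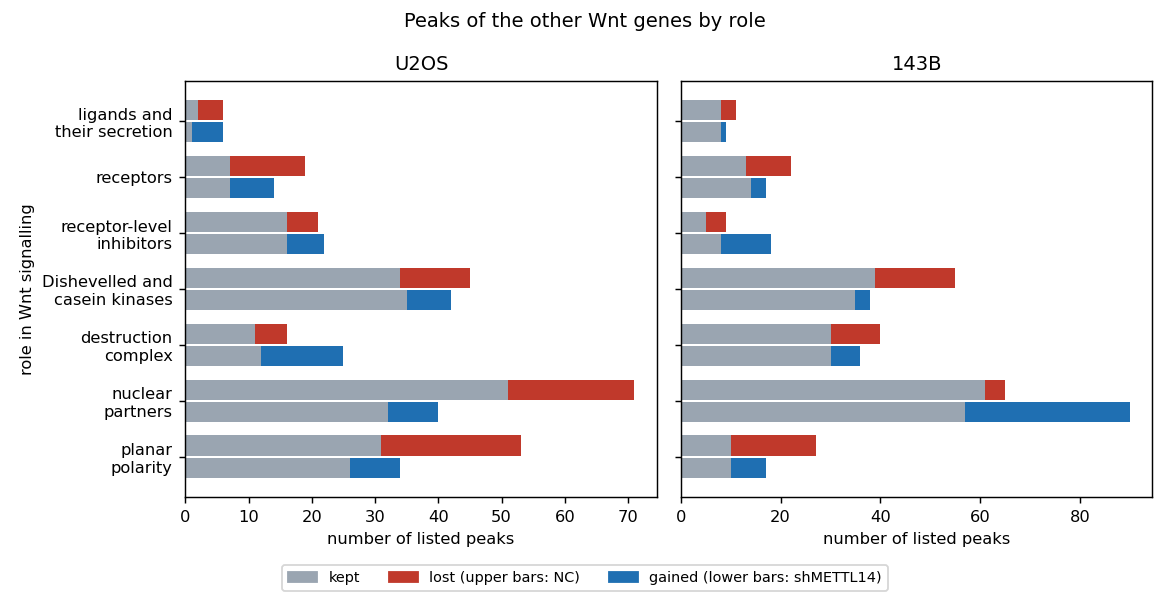
Number of listed peaks (horizontal axis) of the 105 other Wnt genes by role (vertical axis) in U2OS and 143B; upper bars are NC peaks, kept in grey and lost in red, and lower bars shMETTL14 peaks, kept in grey and gained in blue. Nuclear partners hold 33 gained peaks of 90 in 143B (15 of them on TCF7L2 and 11 on CHD8), and planar polarity genes 22 lost peaks of 53 in U2OS.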

How the data were processed

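MeRIP-seq peak lists of 4 immunoprecipitated libraries were used, 1 per group, with groups taken from the sample titles. The submitters' processing notes name HISAT2, Trimmomatic, FastQC 0.11.5 and the build hg19 (GRCh37). Not given in the sources used here: peak caller, threshold, gene annotation, depth. Per the file headers, each peak has a p-value and a fold enrichment, a linear ratio, both deposited by the authors, together with its spliced blocks and transcript part. Start positions are printed from 1, on hg19.

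Overlap was computed on spliced blocks of the same strand (at least 1 bp), against all peaks of the other list of the line, with exact Clopper-Pearson intervals at the 95% level. A site joins overlapping peaks of 1 list and a place those of all 4 lists. Strength groups are 10 equal cuts of a list by p-value. The overlap code was run on simulated data, made by removing joined U2OS NC sites at random and shifting the rest slightly. That simulation held no weak peaks falling below a threshold and no single-peak calls, so it does not speak to the calls on real weak or edge-overlapping peaks. Members, Wnt lists and the rule for named genes were chosen with earlier results of these data known. Besides the members, the rule names per role the 3 genes with most called peaks (ties by highest fold enrichment in any list, then name) and the 1 gene in all lists with fewest (ties by name), and the 3 nearest patterns to FZD3, AXIN2 and ROR2. Sequence under the peaks was not analysed here. Python 3.11.15, numpy 2.4.6, pandas 2.3.3, scipy 1.17.1 and matplotlib 3.10.9 were used.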

Additional observations from a re-analysis of the deposited data

Results flagged for a closer look

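The bases covered by listed peaks moved in opposite directions in the 2 lines for 3 of the 7 genes, and the differences between the lines were not tested, with 1 list per group. For APC the difference between shMETTL14 and NC was -1376 nt in U2OS and 715 nt in 143B. For LRP5 it was -196 nt in U2OS and 32 nt in 143B, and for LRP6 -34 nt in U2OS and 70 nt in 143B. The whole lists moved in the same directions, from 3.46 to 3.16 Mb in U2OS and from 3.6 to 4.22 Mb in 143B.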

How the results depend on the processing

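Of the 44 shares of member peaks lost or gained under other settings, 33 stayed within the exact interval of the reported share. These intervals are wide, and ignoring strand or using whole spans left every member count unchanged. The tally therefore says little about how stable the shares are. When 50% of each peak had to overlap, the lost share was 55.2% in U2OS and 50% in 143B and the gained share 23.1% and 61.9%, where 41.7%, 39.5%, 37.0% and 43.1% of all peaks were called. With only the stronger part of each list counted (p-value no larger than the median there), the lost share was 25.0% in U2OS (6 of 24, where 5.25% of all such peaks were lost) and 0.0% in 143B (0 of 10, where 3.91% of all were lost). The gained share in 143B was 4.76%, where 5.85% of all were gained. With both lists held to the NC median, the lost shares were again 25.0% and 0.0%, where 18.9% and 12.2% of all were lost. The gained share in 143B was then 61.3% (19 of 31), where 27.7% of all were gained. That setting dropped NC peaks with a p-value above 7.1e-06. It removed the 143B NC peaks of the second and sixth APC places (lowest p-values 1.4e-05 and 3.4e-05). It also removed those at 12318048 to 12332865 and 12273998 to 12277592 on LRP6 (1.7e-05 and 8.1e-05). Peaks with shMETTL14 at these places passed the cut, so peaks otherwise called kept were counted as gained. No other cause was tested. Leaving out APC, which was added as an alternative after seeing the data, gave 39.1% lost in 143B (9 of 23), where 20.7% of all were lost. Of these 9, 5 were listings of 1 AXIN2 site and 2 were on FZD3, genes chosen with their peak numbers known. No paired analysis was possible because the shares come from no test and the labels carry no replicate numbers; the lists were compared within each line. The depth behind each peak is unknown, which limits all calls on weak peaks.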
